A study of Rattus norvegicus with 30 samples.

Results

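The cardiac myosin heavy and light chain isoforms were followed in rat hearts through the array rows that carry the gene symbols Myh6, Myh7, Myl2, Myl3, Myl4, Myl7 and Myh7b. The rows were taken by symbol. Of these 7 genes, 6 had a row in the authors' tables of normalized values, and together they had 11 rows, which stand for 11 of the 41012 probes on the array. Myh7b had 0 rows under its symbol. Its probe was on the array and is described at the end. The hearts came from untreated rats of the inbred Fischer 344 (F344) strain, 5 females and 5 males at 8 weeks, 5 and 5 at 21 weeks and 5 and 5 at 78 weeks, with 1 Agilent one-color array per heart and 30 arrays in all. The whole heart was ground, so atria and ventricles were measured as a mixture. In such bulk samples fewer cells of a type and less RNA per cell cannot be told apart.

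The thick filament of the cardiac sarcomere is built from myosin, a motor of paired heavy chains that each carry an essential and a regulatory light chain. Myh6 encodes the fast alpha heavy chain, which predominates in the adult rodent ventricle, and Myh7 encodes the slow beta heavy chain, which predominates in the fetal ventricle and is known to return with age, with pressure load and with low thyroid hormone. Myl4 and Myl7 encode the essential and regulatory light chains of the atrium, and Myl3 and Myl2 those of the ventricle. Myh6 and Myh7 lie next to each other on one chromosome, and their coding sequences are nearly alike.

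Sequences are shown for the probes on which a reading of the heavy chains turns. Each probe is a 60-base DNA oligo, and positions are on the rat build rn3 named in the scanner files, where both genes were on the minus strand of chromosome 15. The 3′ rows of Myh6 (chr15:33060276-33060683) and of Myh7 (chr15:33088720-33089345) both lay on the gene strand, and they hold a run of 27 bases in common, which is in capitals.
Myh6 3′ row: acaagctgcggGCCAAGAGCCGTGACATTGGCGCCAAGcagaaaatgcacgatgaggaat
Myh7 3′ row: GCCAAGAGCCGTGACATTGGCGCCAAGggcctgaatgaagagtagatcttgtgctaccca
The Myh6 row at chr15:33068574-33068722 and the second Myh7 row at chr15:33096125-33096348 are a similar pair, both written 5′ to 3′ on the strand opposite to the genes. Capitals mark the 44 of 56 aligned bases (78.6%) at which the pair is identical.
Myh6 8.4-kb row: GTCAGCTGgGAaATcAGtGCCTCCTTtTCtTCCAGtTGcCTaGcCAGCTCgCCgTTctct
Myh7 36.0-kb row: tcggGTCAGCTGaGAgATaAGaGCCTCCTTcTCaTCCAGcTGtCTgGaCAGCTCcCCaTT
The Myh6 row at chr15:33080799-33081100 is the brightest Myh6 row below the scanner's ceiling, and it lay on the gene strand.
Myh6 20.7-kb row: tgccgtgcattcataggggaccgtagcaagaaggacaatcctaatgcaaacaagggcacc
The names give the distance from the 3′ end of the 3′-most Myh6 probe. The 60 bases of each of these probes spread over 149 to 626 bases of the genome, so each one spans more than a single unbroken stretch. The other Myh6 rows lay at 6.57 kb (chr15:33066775-33066920) and 21.5 kb (chr15:33081658-33081947), both on the opposite strand.

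The rows lay far apart in signal, which is not read as an amount of RNA between probes. The 3′ rows of Myh6 and Myh7 had median processed signals of 78475 and 63047 over the 30 arrays. The gene-strand Myh6 row at 20.7 kb had a median of 702, and the 4 opposite-strand rows had medians between 143 (Myh7, 36.0 kb) and 378 (Myh6, 8.4 kb). Of 8340 probes of reference (RefSeq) mRNAs that could be checked, 96.4% lay on the strand of their gene. The 4 opposite-strand rows carry sequence names such as AI104924 and BF395647 in the scanner annotation. The share among probes of that kind was not taken. The amplified and labeled cRNA that is hybridized is complementary to mRNA, and a probe on the opposite strand has the sequence of that cRNA and not its complement. Whether the opposite-strand rows measured Myh6 and Myh7 mRNA was not tested, and antisense RNA of this locus has been described in rat heart.

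**Figure D1:**
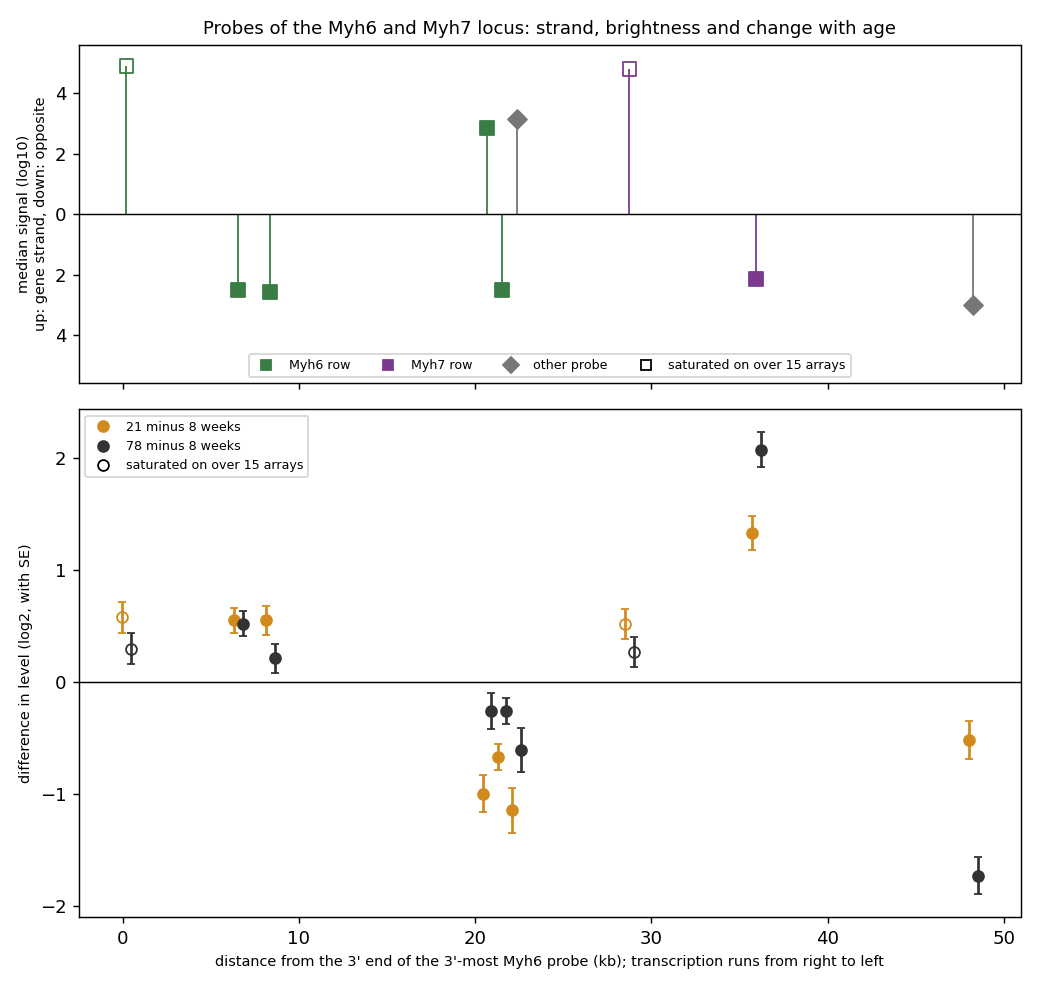
Probes of the Myh6 and Myh7 locus by distance from the 3′ end of the 3′-most Myh6 probe (kb). The upper panel gives the median processed signal (log10) of each probe, upward on the gene strand and downward on the opposite strand, and the lower panel gives the difference in level (log2, bars are the SE, n = 10 arrays per age) of 21 (orange) and 78 (black) weeks against 8 weeks. Open symbols are the 2 probes that were saturated on over 15 arrays; the Myh7 row at 36.0 kb was higher at both later ages.

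A spot is saturated when its pixels reach the top of the scanner's range, and 4 of the 11 rows met this on at least 1 array. The Myh6 3′ row was saturated on 30 of 30 arrays, the Myh7 3′ row on 29, the Myl7 row on 26 and the Myl3 row on 9. The Myl2 and Myl4 rows were bright and saturated on 0 arrays. A level is given here on the log2 scale, as the spot's signal divided by its own array's 75th percentile, so a spot held at the ceiling takes its level from the 75th percentile alone. The level of the Myh6 3′ row followed log2 of the 75th percentile with r = -0.99 across the 30 arrays, and its signal ranged only from 68866 to 82591. The correlation was -0.976 for the Myh7 3′ row, -0.964 for Myl7 and -0.955 for Myl3, whose signal ranged 1.47-fold over all arrays, from 59672 to 87870. For Myl4 and Myl2, below the ceiling, it was -0.78 and -0.603, and for the Myh7 row at 36.0 kb -0.371. Levels of the first 4 rows are therefore not read as changes in RNA. The 75th percentile was 98.0 to 171 at 8 weeks, 39.9 to 123 at 21 weeks and 83.5 to 124 at 78 weeks, and the lowest value, 39.9, belonged to male replicate 2 of 21 weeks.

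**Figure D2:**
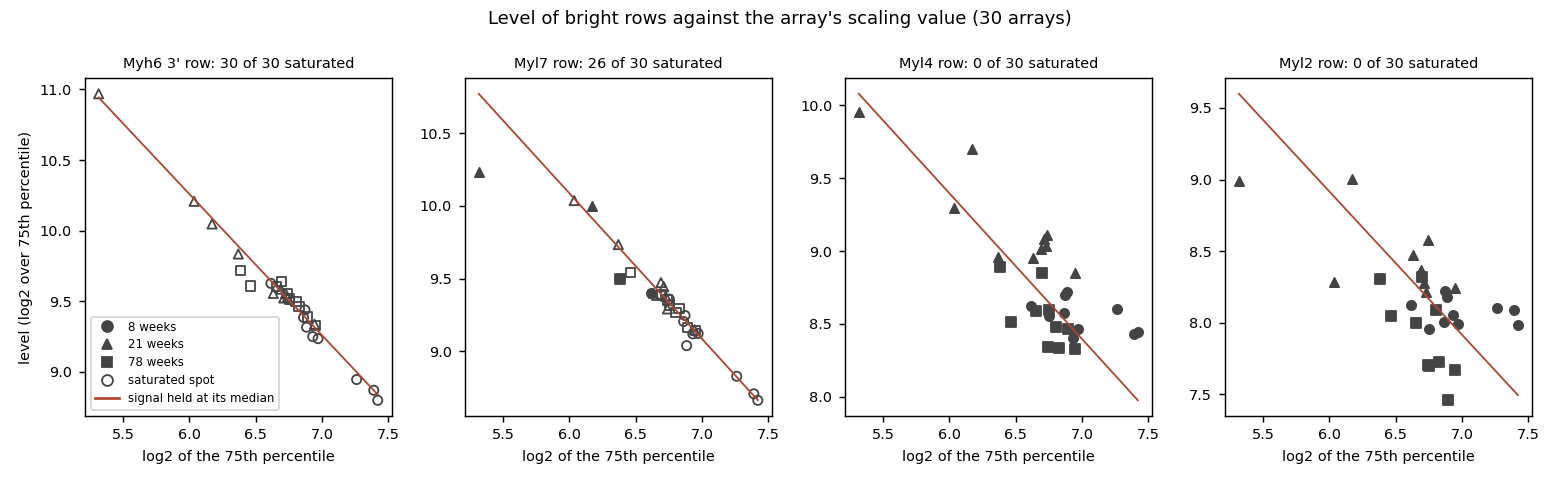
Level (log2 over the 75th percentile) of the Myh6 3′ row, Myl7, Myl4 and Myl2 against log2 of the array's 75th percentile in 30 arrays, with ages as shapes and saturated spots open. The line shows where a spot of constant signal would lie; Myh6 (30 of 30 saturated) and Myl7 (26 of 30) follow it, and Myl4 and Myl2 (0 of 30 each) depart from it.

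The ages differ in more than the animals. By the study's methods rats of different ages were in different batches, and the study compared the sexes within an age only. The 21-week arrays had slides of their own, and the 8-week and 78-week arrays shared 1 slide. Age and batch cannot be told apart, and every age difference below is a description of these arrays under that limit. The sexes shared every slide. By their labels all females were at array position 2 or 4 and all males at 1 or 3, so sex and position cannot be told apart. By the levels of 2 Y-linked genes, the 78-week arrays labeled female replicate 2 and male replicate 3 carried the level of the other sex. They keep their labels here, and results that rest on them are given with and without them. A tested difference is from limma, a linear model fitted to all probes, with Benjamini-Hochberg adjusted p-values over all probes tested, and a call is an adjusted p under 0.05.

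Myh7, the beta heavy chain, had its only row below the ceiling at 36.0 kb, on the opposite strand. In 8-week rats the levels of this row were -1.19, -0.24, -0.64, -0.36 and -0.09 in females and -1.09, -0.42, -0.94, -0.59 and -0.40 in males. All 10 arrays of that age were below 0. At 21 weeks they were 0.44, 0.54, 0.66, 1.20 and 0.18 in females and 1.36, 0.91, 0.86, 0.79 and 0.42 in males. At 78 weeks they were 1.38, 1.75, 1.40, 1.00 and 1.50 in females and 1.78, 2.01, 1.15, 1.62 and 1.20 in males. The 10 arrays of 8 weeks overlapped with neither later age, and those of 21 and 78 weeks overlapped.

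The mean level of the Myh7 36.0-kb row was -0.60 ± 0.37 (SD, n = 10) at 8 weeks, 0.73 ± 0.37 at 21 weeks and 1.48 ± 0.31 at 78 weeks. The row rose by 2.07 (SE 0.16, log2) from 8 to 78 weeks, or 4.21-fold (limma adjusted p = 4.01e-10), and by 2.08 without the 2 arrays of odd sex label. From 8 to 21 weeks it rose by 1.33 (SE 0.16), or 2.51-fold (adjusted p = 3.41e-07), and from 21 to 78 weeks by 0.74 (SE 0.16), or 1.67-fold (adjusted p = 0.000469). On the slide that 8-week and 78-week arrays shared, with 1 female and 1 male of each age, the difference was 1.83. Between the sexes (female minus male) the row differed by 0.18 (SE 0.22) at 8 weeks, -0.26 (SE 0.23) at 21 weeks and -0.14 (SE 0.19) at 78 weeks, and the groups overlapped each time. Without the 2 arrays that go against their sex labels the 78-week difference was -0.33 (SE 0.20), again with overlap. The adjusted p-values of the sex differences over all arrays were 0.927, 0.481 and 0.931 (limma), and the exact permutation p-values of 5 against 5 arrays were 0.452, 0.278 and 0.492 (two-sided).

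The Myh6 row at 20.7 kb, on the gene strand of the alpha heavy chain, was lowest at 21 weeks. In females its levels were 2.67, 3.38, 3.14, 2.95 and 2.95 at 8 weeks, 2.48, 2.03, 2.46, 2.29 and 2.20 at 21 weeks, and 3.15, 2.71, 2.82, 2.66 and 2.74 at 78 weeks. In males they were 3.10, 2.83, 2.70, 2.44 and 2.96 at 8 weeks, 1.99, 1.25, 1.78, 2.12 and 0.54 at 21 weeks, and 2.65, 2.54, 2.74, 1.72 and 2.78 at 78 weeks. Male replicate 5 of 21 weeks was the lowest of all, and the ages overlapped. The row fell by 1.00 (SE 0.16, log2) from 8 to 21 weeks, or 2.00-fold (adjusted p = 3.12e-05), and was higher by 0.74 (SE 0.16) at 78 than at 21 weeks (adjusted p = 0.000799), a difference not called under normexp (0.56, adjusted p = 0.237). Between 8 and 78 weeks its difference of -0.26 (SE 0.16) did not pass the test (adjusted p = 0.289). Its level had r = 0.581 with log2 of the 75th percentile over 30 arrays and 0.121 within groups, and the lowest percentile belonged to a 21-week male. The part of array brightness in its 21-week level was not tested.

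The other Myh6 rows, all on the opposite strand, did not move together. The row at 21.5 kb, less than 1 kb from the 20.7-kb row, also fell from 8 to 21 weeks, by 0.67 (SE 0.12), or 1.59-fold (adjusted p = 6.56e-05), and was higher at 78 than at 21 weeks by 0.41 (SE 0.12, adjusted p = 0.00734), a difference not called under normexp (0.24, adjusted p = 0.832) or with scaling to the median (0.24, adjusted p = 0.146). The rows at 8.4 and 6.6 kb rose from 8 to 21 weeks, each by 0.55, with SE of 0.13 and 0.11 (adjusted p = 0.00173 and 0.000393). From 8 to 78 weeks the 6.6-kb row rose by 0.52 (SE 0.11), or 1.43-fold (adjusted p = 0.00287), and the 8.4-kb row differed by 0.21 (SE 0.13), with an adjusted p of 0.29. Under normexp the 6.6-kb rise to 78 weeks was not called (0.28, adjusted p = 0.126), nor were the rises of the 8.4- and 6.6-kb rows to 21 weeks (0.27 and 0.25, adjusted p = 0.254 and 0.136). Over 405 genes that have probes at least 5 kb apart, the median 5′ minus 3′ difference in level per array was -1.86 to -1.67 at 8 weeks, -1.95 to -1.57 at 21 weeks and -1.82 to -1.66 at 78 weeks, so the ages overlapped in this measure of RNA length. Within groups it had r = 0.415 with the Myh6 20.7-kb row, 0.375 with the Myh7 36.0-kb row and -0.047 with the Myh7 level minus the Myh6 level of these rows. For the 21.5-, 8.4- and 6.6-kb Myh6 rows r was -0.166, -0.156 and 0.191. The part of RNA length in the levels was not tested.

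**Figure D3:**
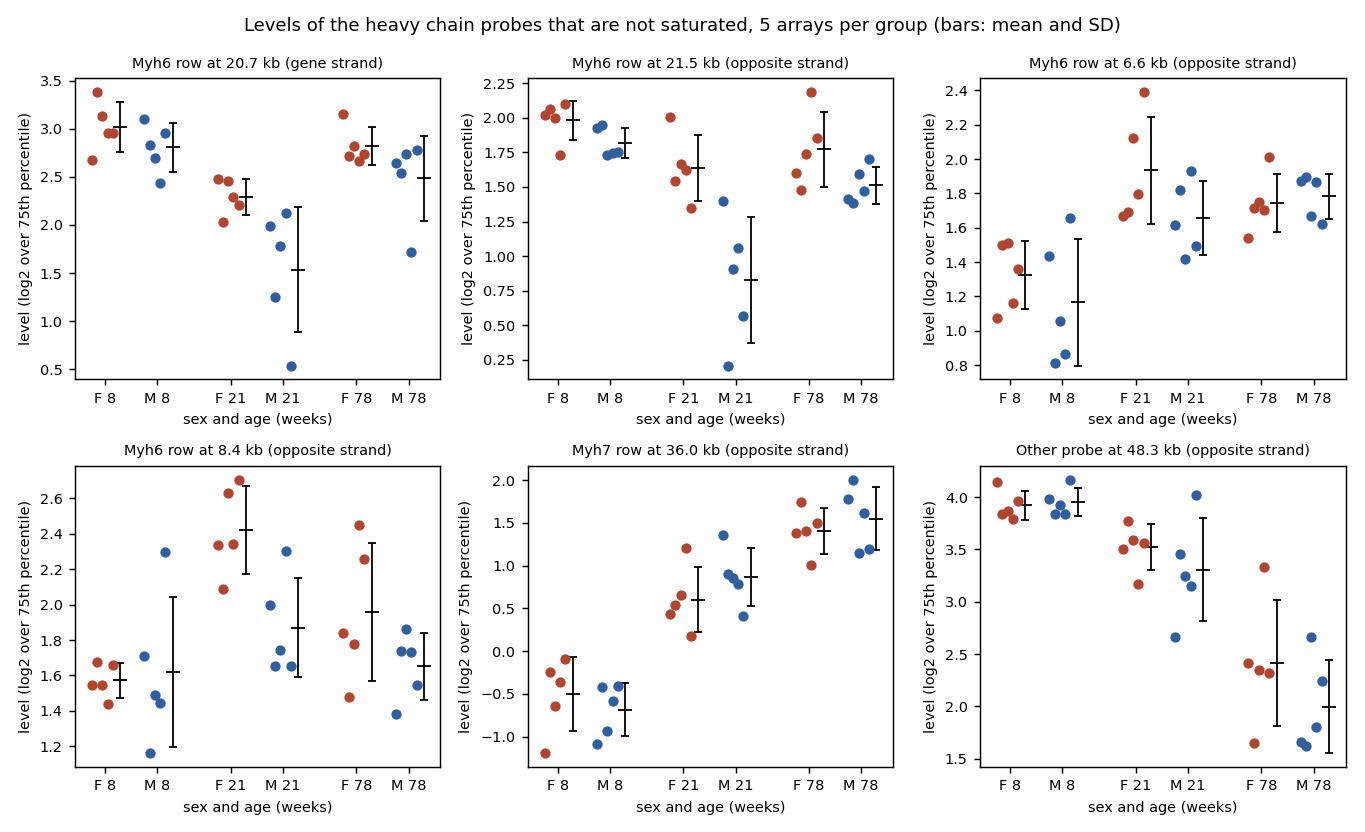
Level (log2 over the 75th percentile) of the 5 heavy chain rows that were not saturated and of a further probe of the locus, by sex and age (F and M, weeks), with 1 point per array (females red, males blue) and the mean and SD of 5 arrays as bars. The Myh7 row lies below 0 at 8 weeks and above 1 on all 78-week arrays, and the 20.7- and 21.5-kb Myh6 rows are lowest in 21-week males.

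Of the 11 myosin rows, 2 were called between 78 and 8 weeks, both higher with age, the Myh7 36.0-kb row and the Myh6 6.6-kb row. Over all probes 8.85% were called in that comparison, 4.78% higher and 4.07% lower. Only the Myh7 row had non-overlapping ages, against 1.92% of all probes. Between 21 and 8 weeks 11 of 11 rows were called, 9 higher and 2 lower, where 53.5% of all probes were called (39% higher and 14.6% lower) and the median of all probes was shifted by 0.28. The 9 higher rows include the saturated rows, and of the 8 rows that were not saturated on over 15 arrays 6 were higher and 2 lower. The Myh7 36.0-kb row and Myl4 had non-overlapping ages between 8 and 21 weeks, against 6.42% of all probes. Between 78 and 21 weeks 6 rows were called, 3 higher and 3 lower, against 29.9% of all probes (13.2% higher and 16.6% lower), and 0 rows were without overlap, against 3.57%.

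No sex difference of a myosin row passed the adjusted test. Of the 11 rows, 0 were called at 8 weeks (0.0659% of all probes), 0 at 21 weeks (0.0317%) and 0 at 78 weeks (0%) with limma, and 0, 4 and 0 had an unadjusted p under 0.05, where 4.28, 13.5 and 4.59% of all probes did. With every array under its label the sexes overlapped in 11 of 11 rows at each age, and 1.06, 3.3 and 0.705% of all probes were without overlap. A test of the sexes on the same values without limma's sharing of variance gave 0, 4 and 0 rows at an unadjusted p under 0.05 too. At 21 weeks 3 Myh6 rows were higher in females before adjustment, by 0.76 (SE 0.28) at 20.7 kb, 0.81 (SE 0.23) at 21.5 kb and 0.55 (SE 0.19) at 8.4 kb, each with an adjusted p of 0.363 and an exact permutation p of 0.0159. The median of all probes differed by -0.23 between the sexes at that age. The 21.5-kb row of 21 weeks was 2.01, 1.54, 1.66, 1.62 and 1.35 in females and 1.40, 0.21, 0.90, 1.06 and 0.57 in males, so only 1 male lay within the female range. Its level had r = 0.735 with log2 of the 75th percentile over 30 arrays, 0.475 within groups and 0.802 over the 21-week arrays. The lowest male value belonged to the array with the lowest 75th percentile. The part of array brightness in this sex difference was not tested. At 78 weeks, with same-numbered females and males set side by side, the 21.5-kb row was higher in the female of 5 of 5 pairs, by 0.10 to 0.71. In each other myosin row the female was higher in 2 to 4 of 5 pairs, so this row is the highest of the 11. The pairs include the arrays of odd sex label, and with the pair as a block 0 of the 11 rows were called. Without those arrays the Myh6 8.4-kb row of 78 weeks was higher in females by 0.48 (SE 0.18), without overlap. With them its difference was 0.31 (SE 0.18), and the other myosin rows overlapped either way. The share of all probes without overlap was not taken for that set of arrays. A change of the sex difference with age was called for 0 of the 11 rows in each of the 3 interaction tests (0, 0.00244 and 0.00244% of all probes), with 0, 5 and 4 rows at an unadjusted p under 0.05 (2.52, 17.3 and 13.4% of all probes).

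The Myh7 to Myh6 ratio of each array was taken as the level of the Myh7 36.0-kb row minus that of the Myh6 20.7-kb row. Whether the opposite-strand Myh7 row measured Myh7 mRNA was not tested. The ratio is therefore one of 2 rows and is not read as the balance of beta to alpha mRNA. The pair is 2 probes of different sequence and strand, so the value itself has no zero and only differences between arrays are read. In 8-week rats the ratio was -3.86, -3.63, -3.77, -3.31 and -3.05 (log2) in females and -4.19, -3.25, -3.64, -3.02 and -3.36 in males. At 21 weeks it was -2.05, -1.49, -1.80, -1.09 and -2.03 in females and -0.63, -0.34, -0.93, -1.33 and -0.12 in males. At 78 weeks it was -1.78, -0.97, -1.42, -1.66 and -1.24 in females and -0.87, -0.54, -1.59, -0.09 and -1.59 in males. The 20 arrays of the later ages lay above every 8-week array.

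The mean Myh7 to Myh6 ratio was -3.51 ± 0.38 (SD, n = 10) at 8 weeks, -1.18 ± 0.68 at 21 weeks and -1.18 ± 0.55 at 78 weeks. It was higher than at 8 weeks by 2.33 (SE 0.25) at 21 weeks and by 2.33 (SE 0.21) at 78 weeks, a 5.02- and a 5.04-fold difference, and by 0.01 (SE 0.28) at 78 than at 21 weeks. These values depended on the Myh6 row. With the 8.4- and 6.6-kb Myh6 rows the 21-week minus 8-week difference was 0.78 for each, and the 78-week minus 21-week difference was 1.08 and 0.77. With the 20.7-kb row the parts differed between the later ages. At 21 weeks the Myh7 row was up by 1.33 and the Myh6 row down by 1.00, and at 78 weeks the Myh7 row was up by 2.07 and the Myh6 row down by 0.26. On the shared slide the 78-week minus 8-week difference in the ratio was 1.88. No p-value is attached to a ratio.

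Between the sexes the Myh7 to Myh6 ratio was -3.52 ± 0.34 in females and -3.49 ± 0.45 in males of 8 weeks (SD, n = 5), a difference of -0.03 (SE 0.25). At 21 weeks it was -1.69 ± 0.41 in females and -0.67 ± 0.48 in males, a difference of -1.02 (SE 0.28), or 2.03-fold lower in females, and 4 of 5 females lay below every male. Most of that difference came from the Myh6 row (0.76) and less from the Myh7 row (-0.26). At 78 weeks it was -1.41 ± 0.32 and -0.94 ± 0.66, a difference of -0.48 (SE 0.33) with 2 of 5 females below every male. Without the arrays that go against their sex labels the difference was -0.75 (SE 0.34), with overlap. Without them it was -0.81 (SE 0.30) with the 8.4-kb Myh6 row, where the groups did not overlap. With the 21.5- and 6.6-kb rows it was -0.68 and -0.27, with overlap. With the 21.5-kb Myh6 row in place of the 20.7-kb row the 21-week difference was -1.07 (SE 0.25) with 5 of 5 females below every male, with the 8.4-kb row -0.81 (SE 0.28) and with the 6.6-kb row -0.54 (SE 0.31), each with 4 of 5. Within groups the ratio did not follow the 75th percentile (r = -0.081 over 30 arrays), whereas over all arrays r was -0.563.

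**Figure D4:**
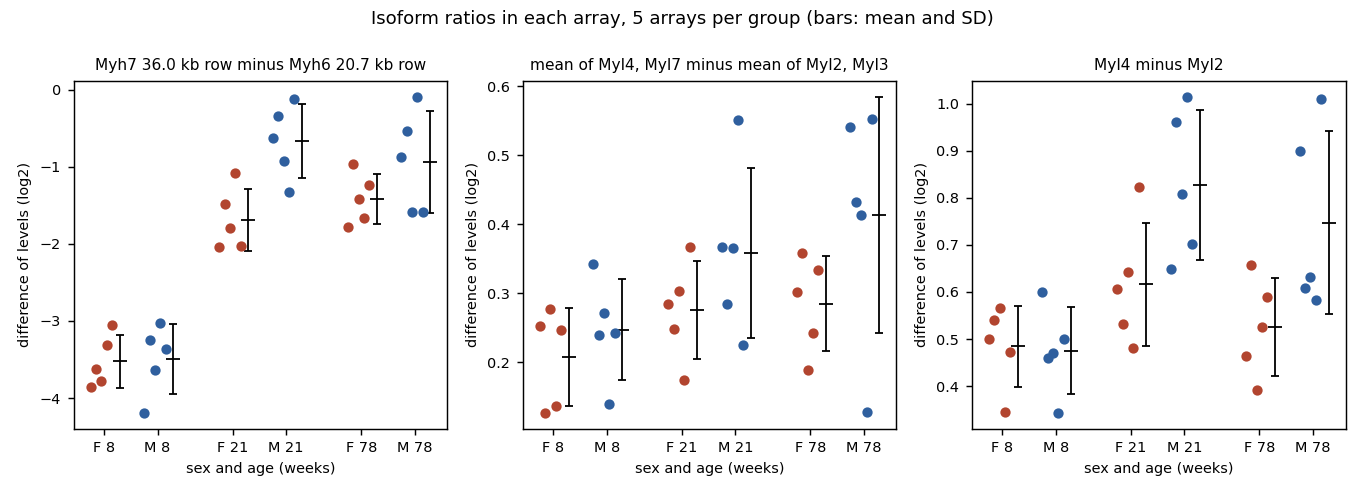
Differences of levels (log2) in each array by sex and age (F and M, weeks), with 1 point per array (females red, males blue) and the mean and SD of 5 arrays as bars. All 8-week arrays lie below -3 for the Myh7 36.0-kb row minus the Myh6 20.7-kb row (left), and the groups overlap for the atrial minus ventricular light chains (middle) and for Myl4 minus Myl2 (right).

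The light chains had 1 row each, and only Myl2 and Myl4 were below the ceiling on all arrays. Myl2, the ventricular regulatory chain (chr12:35527182-35527241), had levels of 8.11, 8.18, 8.01, 8.06 and 8.22 in females and 7.96, 7.98, 7.99, 8.09 and 8.12 in males of 8 weeks. At 21 weeks they were 8.24, 8.58, 8.32, 8.47 and 8.21 in females and 8.37, 8.99, 8.28, 8.28 and 9.001 in males, and at 78 weeks 8.05, 7.67, 8.09, 8.32 and 8.00 in females and 7.70, 7.73, 7.71, 8.31 and 7.46 in males. The highest values belonged to male replicates 2 and 5 of 21 weeks. Myl2 was higher at 21 than at 8 weeks by 0.40 (SE 0.11, adjusted p = 0.00422) and fell by 0.57 (SE 0.11, adjusted p = 0.00017) from 21 to 78 weeks. The first of these differences was -0.06 after quantile scaling and -0.05 after normexp background correction. Between 8 and 78 weeks Myl2 differed by -0.17 (SE 0.11), with an adjusted p of 0.303.

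Myl4, the atrial essential chain, had levels of 8.61, 8.72, 8.57, 8.40 and 8.70 in females and 8.56, 8.44, 8.46, 8.43 and 8.63 in males of 8 weeks. At 21 weeks they were 8.85, 9.11, 8.96, 8.95 and 9.04 in females and 9.01, 9.95, 9.08, 9.30 and 9.70 in males, and at 78 weeks 8.51, 8.33, 8.48, 8.85 and 8.59 in females and 8.60, 8.34, 8.34, 8.89 and 8.47 in males. All 10 arrays of 21 weeks lay above all 10 of 8 weeks, and those of 8 and 78 weeks overlapped. Myl4 rose by 0.64 (SE 0.10), or 1.56-fold, from 8 to 21 weeks (adjusted p = 2.18e-05), fell by 0.66 (SE 0.10) from 21 to 78 weeks (adjusted p = 1.48e-05), and differed by -0.01 (SE 0.10) between 8 and 78 weeks (adjusted p = 0.95). The first of these was not called under quantile scaling (0.12, adjusted p = 0.147) or normexp (0.19, adjusted p = 0.529), nor the second under normexp (-0.63, adjusted p = 0.27). At 21 weeks females were lower than males by a difference of -0.43 (SE 0.20), with an adjusted p of 0.366 (limma) and an exact permutation p of 0.0397. Myl3, the ventricular essential chain (chr8:115164553-115165668), and Myl7, the atrial regulatory chain (chr14:86587423-86587828), were at or near the ceiling, and their differences of 0.61 and 0.54 from 8 to 21 weeks carry the shift of the 75th percentile.

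**Figure D5:**
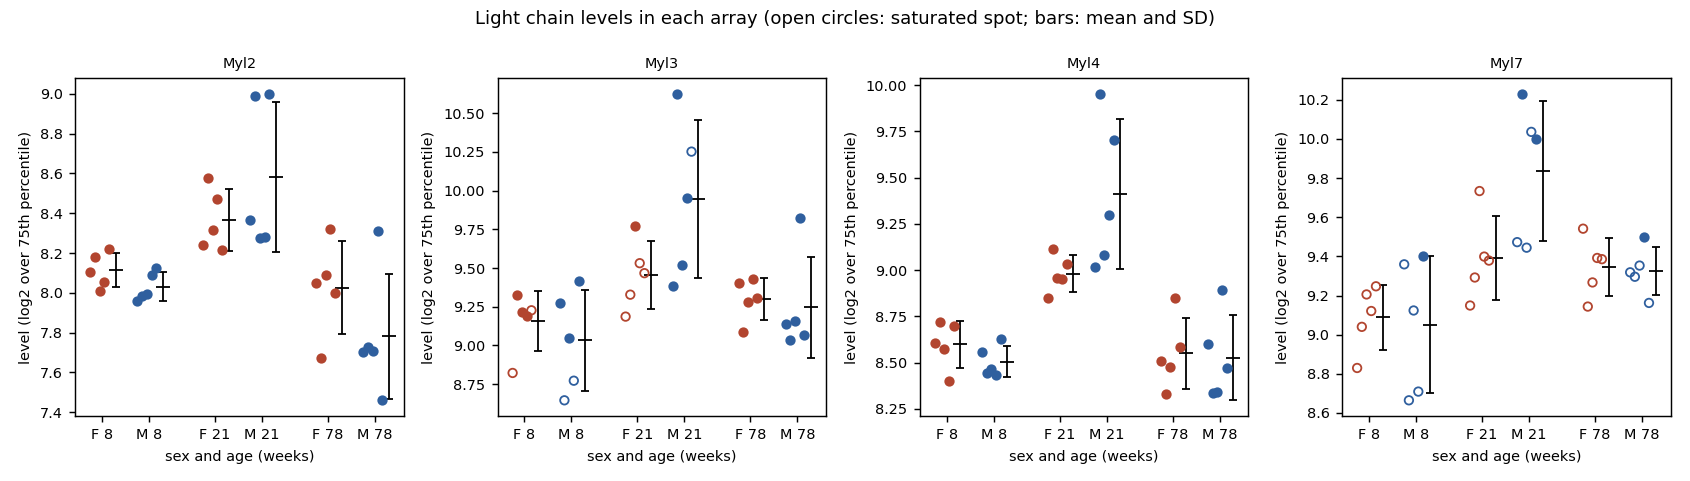
Level (log2 over the 75th percentile) of Myl2, Myl3, Myl4 and Myl7 by sex and age (F and M, weeks), with 1 point per array (females red, males blue), saturated spots open, and the mean and SD of 5 arrays as bars. All 21-week arrays of Myl4 lie above its 8-week arrays, while 26 of 30 Myl7 spots and 9 of 30 Myl3 spots are saturated.

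The atrial to ventricular light chain score of an array was the mean level of Myl4 and Myl7 minus that of Myl2 and Myl3, and it includes the saturated spots. Its group means were 0.21 ± 0.07 and 0.25 ± 0.07 (SD, n = 5) in 8-week females and males, 0.28 ± 0.07 and 0.36 ± 0.12 at 21 weeks, and 0.29 ± 0.07 and 0.41 ± 0.17 at 78 weeks. The score was higher by 0.09 (SE 0.04) at 21 and by 0.12 (SE 0.05) at 78 weeks than at 8 weeks, and the sex differences were -0.04, -0.08 and -0.13 in order of age, with overlap in every case. Myl4 minus Myl2, with both rows below the ceiling and the 75th percentile cancelled by the subtraction, was also taken. It still had r = -0.552 with log2 of the 75th percentile over 30 arrays, and -0.222 within groups. The part of array brightness in it was not tested. The group means of Myl4 minus Myl2 in the same order were 0.48, 0.48, 0.62, 0.83, 0.53 and 0.75. It was higher than at 8 weeks by 0.24 (SE 0.06) at 21 weeks, with 8 of 10 arrays above every 8-week array, and by 0.16 (SE 0.07) at 78 weeks, with 5 of 10. Females were lower at 21 weeks by a difference of -0.21 (SE 0.09), with 4 of 5 females below every male, and at 78 weeks by -0.22 (SE 0.10), with 3 of 5. Without the arrays of odd sex label the 78-week difference was -0.28 (SE 0.11), and the groups overlapped.

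The atrial genes Nppa and Sln had weak positive correlations with the light chain balance, and so had a fat cell gene. Deviations from the group means were taken across the 30 arrays. Myl4 minus Myl2 then had r = 0.342 with Nppa, the atrial natriuretic peptide, and 0.429 with Sln, the atrial calcium pump inhibitor sarcolipin. Its r was 0.234 with Adipoq of fat cells, -0.013 with Myh11 of smooth muscle and -0.115 with Mylpf of skeletal muscle. The light chain score had r = 0.32 with Nppa, 0.474 with Sln, 0.458 with Adipoq, 0.382 with Myh11 and -0.008 with Mylpf. The r of other atrial genes was not taken. The 78-week Nppa levels ran from 7.90 to 8.52 among females and from 8.08 to 9.08 among males, whose highest spot was saturated. The highest female and the lowest male were the arrays of odd sex label. Without them the top female had 8.51 and the bottom male 8.76, so the sexes did not overlap. Sln ran from 6.46 to 7.34 among females and from 6.31 to 7.89 among males, with or without those arrays. Of 12 measured atrial genes, with a median difference of 0.06, 3 rose between 8 and 78 weeks, where 8.85% of all probes were called. Nppa rose by 0.46 (adjusted p = 0.0141) and Gja5, an atrial gap junction gene, by 0.36 (adjusted p = 0.00249). Kcnj5, an atrial potassium channel subunit, rose by 0.30 (adjusted p = 0.0435), with a turned sign after normexp. The part that the share of atrial tissue in each ground heart had in the score was not tested.

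Regulators of the heavy chain genes included the thyroid hormone axis, which is known to raise Myh6 and lower Myh7. Of 18 measured regulators 3 rose and 3 fell between 8 and 78 weeks, where 8.85% of all probes were called. Their median difference was 0.02 against 0.13 for all probes. Dio3, the deiodinase that inactivates thyroid hormone, rose by 1.67 (SE 0.18), or 3.18-fold (adjusted p = 3.02e-07), and its difference was 0.66 to 1.67 over 5 scalings. Its signal was weak, with mean levels of -3.22 at 8 and -1.55 at 78 weeks, and it was well above background on 28 of 30 arrays. Dio2, the deiodinase that activates it, rose by 0.34 (adjusted p = 0.00635), and Mef2c, a muscle transcription factor that was well above background on 2 arrays only, by 0.93 (adjusted p = 0.0466). Thra, the main thyroid hormone receptor gene of the heart, fell by 0.36, or 1.28-fold (adjusted p = 0.000252). Its partner receptor Rxrg fell by 0.30 (adjusted p = 0.00387) and the cardiac transcription factor gene Gata4 by 0.26 (adjusted p = 0.0153). Between 21 and 8 weeks 7 regulators were higher and 4 lower, where 53.5% of all probes were called, and between 78 and 21 weeks 5 were higher and 6 lower, where 29.9% were.

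Of 16 thick filament partners 2 rose and 1 fell between 8 and 78 weeks, with a median difference of -0.03. Over all probes 8.85% were called in that comparison. Myom2, an M-band protein gene, rose by 0.49 (adjusted p = 0.0149) and Trim54 by 0.41 (adjusted p = 0.00147), and Trim63, which encodes a muscle ubiquitin ligase, fell by 0.29 (adjusted p = 0.00826). At 21 weeks 3 partners were higher and 5 lower than at 8 weeks, where 53.5% of all probes were called. Among the lower ones was Ttn, the gene of the giant protein titin, which fell by 1.65, or 3.13-fold (adjusted p = 1.21e-08). Of 8 skeletal and embryonic sarcomeric myosins (median difference 0.12) 1 rose by 78 weeks, Myh2, a fast skeletal heavy chain gene, by 1.95, or 3.87-fold (adjusted p = 0.00104), with 17 arrays well above background. Of 6 measured nonmuscle and smooth muscle myosins (median -0.01) 1 fell, Myl9, by 0.45 (adjusted p = 0.00248). In the sex comparisons and interactions 0 genes were called in any of these lists (limma).

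Markers of other cell types were read beside these differences, with 8.85% of all probes called between 8 and 78 weeks. Of 6 fibroblast markers (median difference -0.20) 2 fell between 8 and 78 weeks, Col3a1 by 1.41 (adjusted p = 3.13e-10) and Col1a1 by 0.67 (adjusted p = 0.00146). The summed fibroblast marker level was 8.07 to 8.44 at 8 weeks and 7.54 to 8.22 at 78 weeks. Of 5 fat cell markers (median 1.29), of which 3 were well above background on all arrays and 1 on none, 1 rose, Cfd by 1.29 (adjusted p = 0.00205), and their summed level was 5.66 to 6.67 and 5.82 to 7.62. Of 7 cardiomyocyte markers, all well above background on the 30 arrays, 0 rose and 1 fell (median 0.16), with summed levels of 10.4 to 10.9 and 10.6 to 11.0. That list holds the members Myl2 and Myh6. Between 8 and 21 weeks, when 53.5% of all probes were called, 5 of its 7 genes rose and 2 fell, with the thin filament genes Actc1, Tnnt2 and Tnni3 up by 0.56, 0.64 and 0.62, while 4 of 6 fibroblast and 4 of 5 endothelial markers fell. The part of cell mixture in the myosin differences was not tested.

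A pair of probes without a myosin symbol lay at the same locus. The probe of transcript TC542129, at 48.3 kb, beyond the 5′-most Myh7 row, had its coordinates in the order of the opposite strand. It fell as the Myh7 36.0-kb row rose. Its levels were 3.79 to 4.14 in females and 3.84 to 4.17 in males of 8 weeks, 3.17 to 3.77 and 2.66 to 4.02 at 21 weeks, and 1.65 to 3.34 and 1.63 to 2.66 at 78 weeks. It fell by 1.73 (SE 0.17), or 3.32-fold, from 8 to 78 weeks without overlap (adjusted p = 4.36e-08), and on the shared slide the difference was -2.03. Its female minus male difference at 78 weeks was 0.42 (SE 0.31), with an adjusted p of 0.931 (limma) and overlap. Without the arrays of odd sex label it was 0.77 (SE 0.28), and the groups did not overlap. The probe of AF074962, at 22.4 kb and in gene-strand order, fell by 1.15 (SE 0.20), or 2.22-fold, from 8 to 21 weeks (adjusted p = 6.54e-05), as the neighboring 20.7- and 21.5-kb Myh6 rows did. These probes were chosen for their position beside the member rows.

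Myh7b, which encodes a further slow myosin heavy chain and hosts a microRNA gene, was measured by a probe (chr3:146045081-146045140) on its gene strand that the tables list without the symbol. It was well above background on 30 arrays and saturated on 0. Its levels were 3.49 to 3.93 in females and 3.28 to 3.75 in males of 8 weeks, 2.88 to 3.31 and 2.44 to 3.18 at 21 weeks, and 3.60 to 4.10 and 3.48 to 3.67 at 78 weeks. Myh7b was lowest at 21 weeks, when it was below 8 weeks by a fall of 1.56-fold (difference -0.64, SE 0.09, adjusted p = 7.51e-06), and it was higher at 78 than at 21 weeks by 0.72 (SE 0.09), or 1.65-fold, without overlap (adjusted p = 1.33e-06). Between 8 and 78 weeks it differed by 0.08 (adjusted p = 0.604), unlike the Myh7 36.0-kb row. The female minus male difference at 78 weeks was 0.28 (SE 0.11), with an adjusted p of 0.931 and an exact permutation p of 0.0397, and it was 0.32 (SE 0.11) without the arrays of odd sex label, when the groups overlapped.

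The genes most like the Myh7 to Myh6 ratio within groups were listed by Pearson's r over the 30 arrays, among 14442 probes well above background on all of them. They were AW920871 (r = 0.736), Lpxn (0.732), Tfb2m (0.716), M27315 (0.713) and Cited4 (0.71). For the light chain score they were Arid1b (0.792), AW918767 (0.79), RGD1565591 (0.781), AA899278 (0.762) and Adss (0.762). The points share slides and scaling, and these are the highest of many values.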

How the data were processed

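RNA of 30 hearts was labeled with Cy3 and hybridized to Agilent 4 x 44k arrays of 45018 spots. The deposited scanner files hold the processed intensity of each spot (Feature Extraction, background-subtracted), with flags for saturation and for signal well above background. The tables of the authors, 1 per age, hold signal values that the authors divided by the 75th percentile of each array. The authors' tables were used to find the rows (all 11 matched a probe within 0.002 log2 in all 3 tables), and the scanner files gave the levels, since the male columns of 21 weeks name no rat. Columns of another series numbered 0. Control spots were left out, spots of a probe were averaged, and each array's signals were divided by their 75th percentile and taken to log2. Whether a replicate is a separate animal rests on the study's methods.

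Sexes were compared within an age over its 10 arrays, and ages over 30 arrays with sex in the model, with limma 3.58.1 (R 4.3.3), two-sided, adjusted over all probes tested. Tables and ratios were made with Python 3.11.15, pandas 2.3.3 and numpy 2.4.6. Single values had an exact permutation test, whose smallest p for 5 against 5 arrays is 0.00794. The number of arrays limits the precision. The scripts were tested on simulated data. Genes named are all member rows, the called genes of each list (at most 5 per list and comparison, 1 probe per gene, by difference), and the 5 names most like each ratio. Where a member had several rows, the ratios used the brightest one saturated on at most 15 arrays. The lists were thick filament partners, other sarcomeric myosins, nonmuscle and smooth muscle myosins, heavy chain regulators, atrial and ventricular genes, and markers of skeletal muscle, smooth muscle, fibroblasts, endothelium, leukocytes, fat cells, mesothelium and cardiomyocytes. In the lists not described above, 0 of 3 ventricular genes, 0 of 5 smooth muscle and 0 of 4 mesothelial markers were called between 8 and 78 weeks. In the same comparison 1 of 5 endothelial markers was lower, 1 of 8 skeletal markers was higher, and of 6 leukocyte markers 2 were higher and 1 lower. Over all probes 8.85% were called there. The members and lists were chosen with earlier results of these data known. Columns of p-values or fold changes from the authors were not used.

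Same-numbered females and males shared a slide. Their deviations from the group means correlated between -0.208 and 0.197 at 8 weeks and between -0.157 and 0.563 at 21 weeks. At 78 weeks every pair was over 0.1 (0.139 to 0.305). A pairing of animals and a shared slide cannot be told apart by these values. The alternatives were quantile scaling, normexp background correction (offset 50), slide and replicate blocks, each sex alone, other probes for the ratios, the authors' tables and leaving out arrays.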

Additional observations from a re-analysis of the deposited data

Results flagged for a closer look

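Of 80 sets of 5 arrays checked for a value far from the others, 3 held one by Dixon's test, and chance gives about 1 in 20. In 78-week males, replicate 4 had 1.72 for the Myh6 20.7-kb row, against 2.54 to 2.78 in the other 4, and 9.83 for Myl3, against 9.04 to 9.16. In 8-week females, replicate 4 had 1.73 for the Myh6 21.5-kb row, against 2.00 to 2.10.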

How the results depend on the processing

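The 78-week minus 8-week rise of the Myh7 36.0-kb row was called in every setting run, from 1.40 (normexp, adjusted p = 3.79e-06) to 2.24 (males alone). Its rise from 21 to 78 weeks was not called under normexp (0.57, adjusted p = 0.0543). Called rows of 11 numbered 1 (78 minus 8 weeks), 3 (21 minus 8) and 0 (78 minus 21) under normexp, 5 for 21 minus 8 weeks under quantile scaling, 1, 5 and 3 in females alone, and 1 for 78 minus 8 weeks in males alone. With the replicate block 0 rows were called between the sexes at any age and 2, 11 and 7 between ages, and with the slide as a random block 2, 11 and 8. The sign turned for Myl2 between 8 and 21 weeks (-0.065 under quantile, -0.050 under normexp) and for Myl7 (-0.029 under quantile). Without the 2 arrays of odd sex label Myl3 lost its call between 21 and 78 weeks (adjusted p = 0.0563).

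The Myh7 to Myh6 ratio depended on the Myh6 row. With the 8.4-kb row the differences were 0.78 for 21 minus 8 weeks and 1.08 for 78 minus 21. With the 6.6-kb row they were 1.55 (78 minus 8), 0.78 (21 minus 8), 0.77 (78 minus 21) and -0.54 (sex at 21 weeks). Saturated rows carry no RNA change, so their values bear on the ceiling only. With the Myh6 3′ row they were 1.78, 0.75, 1.03 and 0.24, the last opposite in sign. With both saturated rows they were -0.031 for 78 minus 8, -0.062 for 21 minus 8, 0.21 for sex at 21 weeks and 0.064 for sex at 78 weeks, all opposite in sign. For Myl4 and Myl2 alone the light chain differences were -0.21 (sex at 21 weeks) and 0.24 (21 minus 8), and for Myl7 and Myl3 alone, largely saturated, 0.044 and -0.063, both opposite in sign to the score. The cause was not tested. The single light chain pairs, and the age differences without the arrays of odd sex label, were chosen after seeing the data.

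Leaving out 1 array at a time gave 0 called rows between the sexes at each age and 2, 11 and 6 to 9 between ages. The Myh7 to Myh6 ratio then differed by 2.21 to 2.40 (78 minus 8), 2.21 to 2.42 (21 minus 8) and -0.11 to 0.12 (78 minus 21), and between sexes by -0.21 to 0.09, -1.19 to -0.88 and -0.64 to -0.27. Saturation leaves the Myh6 and Myh7 3′ rows and Myl7 unreadable as changes.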
